A study of Sus scrofa with 12 samples.

Results

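Small leucine-rich proteoglycans are secreted matrix proteins, and 8 of their genes were followed here: BGN, DCN, ASPN, FMOD, LUM, PRELP, OMD and OGN. They were picked by gene name, and all 8 listed names were found among the 22861 genes of the expression table. RNA was sequenced from cultured aortic valve interstitial cells of the pig (Sus scrofa), the resident fibroblast-like cells of the leaflet. The cells grew on glass, which the labels give as the stimulus for calcification, in DMEM, and 3 biological replicates were taken in each of 4 groups. These were Stage 1 (day 5), Stage 2 (day 8), Stage 3+DMSO and Stage 3+KPT, the last 2 receiving solvent or compound once Stage 3 was reached. The protocol names 12 days as the longest culture but does not tie a day to the Stage 3 libraries, and it gives no dose or exposure time for KPT. Molecules coded KPT are generally inhibitors of the nuclear export receptor XPO1, but which one was applied is not stated. Stage 3+DMSO is the only Stage 3 group without the compound, and it differs from Stage 1 and Stage 2 in both stage and solvent. Stage and solvent therefore cannot be told apart in these comparisons. Stage 3+KPT differs from Stage 1 and Stage 2 in stage and solvent as well as in the compound. Separate animals are not named for the replicates. The p-values therefore cover only the variation among these cultures, which may be technical.

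The proteins of this family share a horseshoe-shaped core of leucine-rich repeats, with which many of them bind collagen and influence how fibrils assemble and how thick they become. Several also hold growth factors such as TGF-beta in the matrix, and biglycan and decorin can signal through Toll-like receptors. By sequence, BGN, DCN and ASPN belong to class I, whose first 2 members carry chondroitin or dermatan sulfate chains. FMOD, LUM, PRELP and OMD belong to class II, which includes keratan sulfate proteoglycans, and OGN belongs to class III. In the valve leaflet, the family is part of the collagen-rich and proteoglycan-rich layers.

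The values are RPKM, reads scaled to exon length and library size. Levels of different genes can be set side by side only roughly, as each value depends on the annotated exon length. For LUM at Stage 1, the middle exon averaged 1142 RPKM, the annotated last exon of 2198 bases 142 and the gene 406. Ranks, shares and ratios between members carry this limit. Reads summed over genes ran from 23287593 to 43293744 per library. The fibroblast markers fixed for these cells were all expressed (8 of 8, summed RPKM 16131 to 28579). Endothelial markers (7 of 8 found) summed to 61.6 to 83.8 RPKM in the groups without the compound and 32.7 to 38.5 with KPT. Leukocyte markers summed to at most 15.5 RPKM, with ITGAM and CD163 at 0 in every group, and cardiomyocyte, epithelial and adipocyte markers to at most 0.460. Smooth muscle or activation markers (5 of 6 found) summed to 28170 to 30012 RPKM at Stage 1, 21642 to 25766 at Stage 2, 14285 to 16138 in Stage 3+DMSO and 7680 to 8839 in Stage 3+KPT. In bulk RNA of this kind, fewer cells of a type and less RNA per cell cannot be told apart.

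BGN and FMOD dominated the family, and OMD and OGN were close to the lower end of what was tested. Over the 12 libraries, BGN ranked 20 and FMOD 24 among the 22861 genes by mean RPKM. PRELP ranked 195, DCN 284, LUM 302 and ASPN 889, while OGN and OMD ranked 10805 and 10856. All 8 passed the filter used for testing, an RPKM of at least 1 in at least 3 libraries, which 13046 genes passed. The lowest members, OGN and OMD, rested on 90 to 345 and 138 to 829 reads per library, against at least 2540 reads for ASPN and 92667 for BGN.

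Biglycan (BGN), a class I proteoglycan that usually bears a pair of chondroitin or dermatan sulfate chains, lies on chromosome X from 141845599 to 141858874 on the plus strand. All positions are as in the deposited table, and its genome build is not named in the sources used here. Its level was 4001, 4326 and 4185 RPKM in Stage 1 replicates 1, 2 and 3, and 7080, 6767 and 6390 at Stage 2. In Stage 3+DMSO it was 4738, 5037 and 5031 RPKM, and in Stage 3+KPT 2754, 3015 and 3009. No library of one group reached into another group's range, and the order from high to low was Stage 2, Stage 3+DMSO, Stage 1 and Stage 3+KPT.

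Decorin (DCN), which carries 1 glycosaminoglycan chain and binds collagen fibrils and TGF-beta, lies on chromosome 5 from 96109666 to 96143719 on the plus strand. Stage 1 libraries held 564, 562 and 582 RPKM of DCN, and Stage 2 libraries 673, 680 and 738. It stood at 385, 337 and 376 RPKM in Stage 3+DMSO and at 512, 444 and 439 in Stage 3+KPT. The groups were again fully separate, but here the lowest was Stage 3+DMSO and the compound group lay between it and Stage 1.

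Asporin (ASPN), the class I member named for its run of aspartate residues, binds collagen and can bind TGF-beta and BMP-2. It lies on chromosome 3 from 43350287 to 43377535 on the minus strand. ASPN read 73.8, 78.1 and 87.7 RPKM at Stage 1 and 205, 303 and 315 at Stage 2. The Stage 3+DMSO libraries gave 230, 201 and 230 RPKM, and the Stage 3+KPT libraries 136, 105 and 125. Stage 1 was the lowest group in every library, and Stage 2 and Stage 3+DMSO overlapped because Stage 2 replicate 1 (205 RPKM) fell within the Stage 3+DMSO range.

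**Figure D1:**
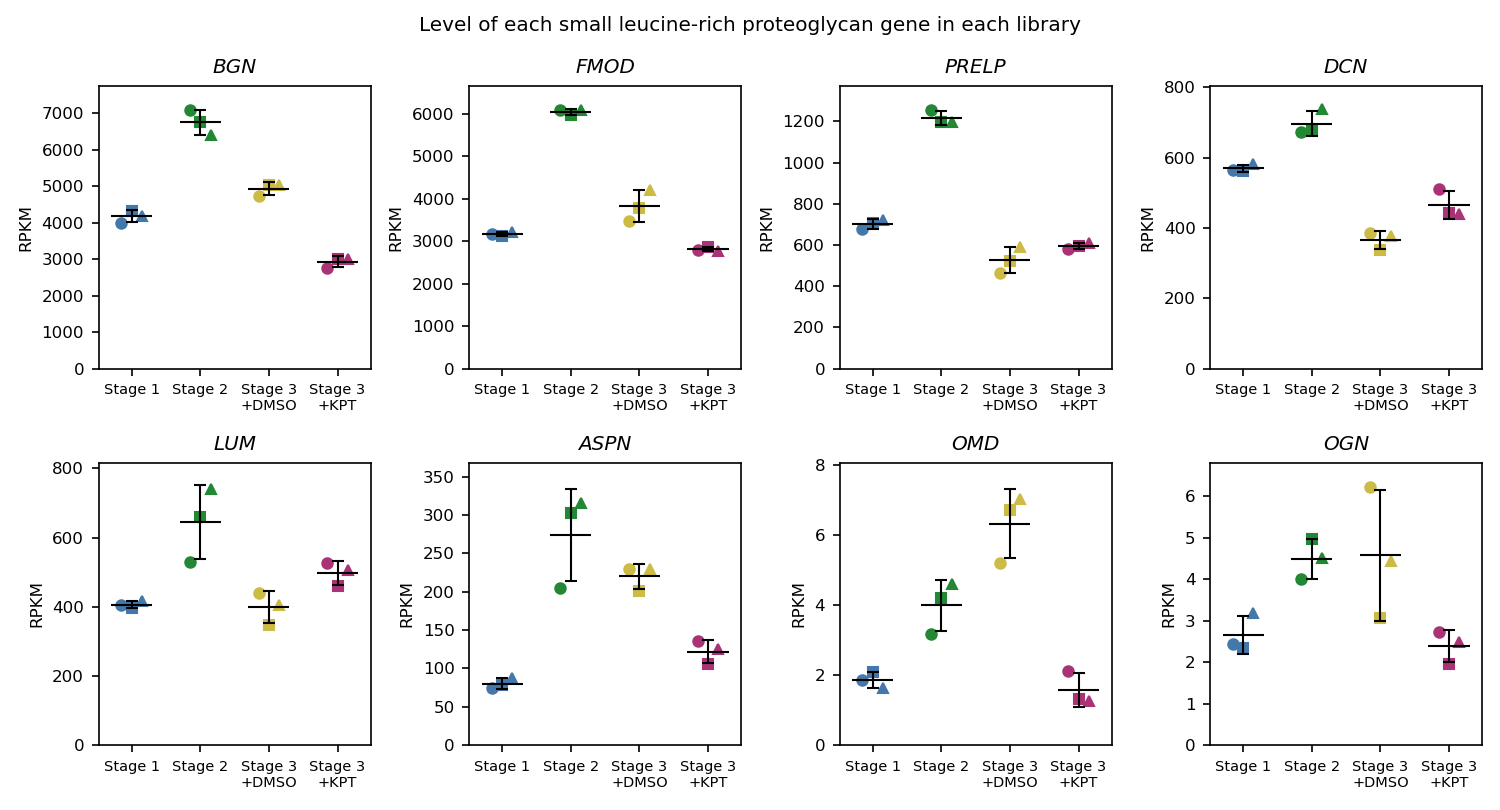
RPKM (y axis, linear from 0, a separate scale for each gene) of the 8 genes in the 12 libraries, by group on the x axis; circles, squares and triangles are replicates 1, 2 and 3, and black lines give the mean and SD. BGN, FMOD, PRELP, DCN, LUM and ASPN have their highest mean at Stage 2, whereas OMD has its highest in Stage 3+DMSO.

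Fibromodulin (FMOD), a collagen-binding class II proteoglycan with keratan sulfate chains, lies on chromosome 9 from 70356564 to 70367608 on the minus strand. Its Stage 1 libraries held 3159, 3130 and 3212 RPKM and its Stage 2 libraries 6083, 5971 and 6088. With DMSO at Stage 3 the level was 3467, 3781 and 4218 RPKM, and with KPT 2789, 2868 and 2776. The Stage 2 replicates were tight, and the Stage 3+DMSO replicates were the most spread of the 4 groups. FMOD thus had the same order of groups as BGN.

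Lumican (LUM), a keratan sulfate proteoglycan that limits fibril thickness, lies on chromosome 5 from 96175704 to 96184752 on the plus strand. It read 404, 398 and 417 RPKM at Stage 1 and 530, 661 and 742 at Stage 2. Values of 440, 348 and 406 RPKM were measured in Stage 3+DMSO and 527, 461 and 505 in Stage 3+KPT. The Stage 1 libraries lay inside the Stage 3+DMSO range, and the lowest Stage 2 library was only just above the highest KPT library.

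PRELP, a class II member with a positively charged end that binds heparan sulfate and collagen, lies on chromosome 9 from 70484582 to 70498199 on the plus strand. It held 676, 707 and 721 RPKM at Stage 1 and 1254, 1198 and 1195 at Stage 2. In Stage 3+DMSO it was 463, 524 and 591 RPKM, and in Stage 3+KPT 582, 595 and 609. Stage 2 was far above the rest, and Stage 3+DMSO replicate 3 lay within the KPT range.

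Osteomodulin (OMD), an acidic class II keratan sulfate proteoglycan best known from bone, lies on chromosome 3 from 43327319 to 43339413 on the minus strand. Its level was 1.86, 2.09 and 1.62 RPKM at Stage 1 and 3.18, 4.20 and 4.59 at Stage 2. Stage 3+DMSO gave 5.20, 6.73 and 7.04 RPKM and Stage 3+KPT 2.12, 1.32 and 1.25. The 3 groups without the compound were separate and each later one was higher, and the KPT libraries overlapped those of Stage 1.

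Osteoglycin (OGN), also called mimecan, is a class III member. The gene that the deposited table names OGN lies on chromosome 3 from 43250505 to 43259402 on the plus strand. Its Entrez number is that of OGN, but a separate list of gene names gives OGN another Ensembl identifier. This gene stood at 2.44, 2.34 and 3.18 RPKM at Stage 1 and 4.0, 4.97 and 4.50 at Stage 2. The Stage 3+DMSO libraries read 6.21, 3.07 and 4.45 RPKM and those with KPT 2.73, 1.96 and 2.48. The Stage 3+DMSO replicates were the most scattered and overlapped both earlier stages. OGN therefore formed a high pair of groups (Stage 2 and Stage 3+DMSO) and a low pair (Stage 1 and Stage 3+KPT), with no called difference within either pair.

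From Stage 1 to Stage 2, all 8 members rose. The background was 16.3% of tested genes called higher and 24.4% called lower, where called means a Benjamini-Hochberg adjusted p under 0.05 in one limma fit on log2(RPKM + 1). The libraries of the 2 stages did not overlap for any of the 8, as was so for 52.5% of all tested genes, and the members' median log2 fold change was 0.74 against -0.05 over all genes. ASPN rose most, by 1.75 (SE 0.14, adjusted p = 3.78e-06), a 3.43-fold ratio of mean RPKM. FMOD rose by 0.93 (SE 0.07, adjusted p = 1.49e-06) and BGN by 0.69 (SE 0.06, adjusted p = 7.25e-06). PRELP (0.79, SE 0.07), OMD (0.80, SE 0.17), LUM (0.65, SE 0.11) and OGN (0.59, SE 0.19) also rose. The 1 added to RPKM understates the change of the low genes OMD and OGN. By ratio of mean RPKM, OMD rose 2.15-fold, FMOD 1.91-fold, PRELP 1.73-fold, OGN 1.69-fold and LUM 1.59-fold. DCN rose least, by 0.29 (SE 0.07, adjusted p = 0.00638). The OGN call (adjusted p = 0.0235) was lost without Stage 1 replicate 1 or 2 or Stage 2 replicate 2 or 3, with adjusted p from 0.0560 to 0.0793. Fibroblast markers also rose in this comparison (6 of 8 tested, none lower), with summed RPKM of 19473 to 20407 at Stage 1 and 26691 to 27597 at Stage 2. So did chondrocyte markers (3 of 4 tested, none lower), whose sums were 16.7 to 17.4 and 29.8 to 31.3 RPKM. The part of either list in the members' values was not tested.

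Between Stage 2 and Stage 3+DMSO, 5 members fell, 1 rose and 2 did not pass, against a background of 33.0% of genes called higher and 11.1% called lower. PRELP fell most, by 1.21 on the log2 scale (SE 0.07, adjusted p = 2.05e-07), to 526 ± 63.7 from 1216 ± 33.6 RPKM (SD, n = 3). DCN fell by 0.93 (SE 0.07), LUM by 0.69 (SE 0.11), FMOD by 0.67 (SE 0.07) and BGN by 0.45 (SE 0.06). OMD rose by 0.55 (SE 0.17, adjusted p = 0.0162). ASPN (-0.29, SE 0.14, adjusted p = 0.119) and OGN (-0.01, SE 0.19, adjusted p = 0.962) did not pass. For 6 members the ranges of the libraries did not overlap, as for 51.1% of all genes, and the members' median was -0.56 against 0.15 for all genes.

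How the libraries were scaled mattered for this second step. After rescaling by the median ratio, the median of all genes moved by -0.15 and the share of calls that were higher went from 74.9% to 50.7%. OMD then did not pass (0.42, adjusted p = 0.0559), nor under quantile normalization (0.34, adjusted p = 0.132), nor without Stage 2 replicate 1 (0.0645) or Stage 3+DMSO replicate 2 (0.0545) or 3 (0.0627). BGN lost its call under quantile normalization (-0.05, adjusted p = 0.550). ASPN passed as lower after median-ratio rescaling (-0.46, adjusted p = 0.0156) and without Stage 2 replicate 1 (-0.49, adjusted p = 0.00362). In the same comparison smooth muscle or activation markers were lower (5 of 5 tested) and chondrocyte markers higher (3 of 4 tested, none lower, with a Stage 3+DMSO sum of 49.7 to 60.2 RPKM). Fibroblast markers had 3 higher and 1 lower of 8, and osteoblast markers 0 higher and 1 lower of 3. Over all genes, 33.0% were called higher and 11.1% lower, and the fibroblast counts were near these shares. The part of these lists in the members' differences was not tested.

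Whether the second step differed from the first was tested directly, as the second minus the first. Only the second step includes the addition of solvent. A value below 0 can mean a reversal or a rise that stopped. It was called below 0 for 6 members: ASPN (-2.04, SE 0.25), PRELP (-2.01, SE 0.13), FMOD (-1.60, SE 0.12), LUM (-1.34, SE 0.19), DCN (-1.22, SE 0.12) and BGN (-1.14, SE 0.11), with adjusted p at most 0.000207. For ASPN no reversal was shown, as its second step alone was not called (-0.29, adjusted p = 0.119). Across all genes, 10.8% were called lower and 27.6% higher in this contrast. Of the calls, 71.9% were higher as deposited and 50.04% after median-ratio rescaling. OGN (-0.61, SE 0.32, adjusted p = 0.161) and OMD (-0.24, SE 0.29, adjusted p = 0.534) did not pass, and OGN passed without Stage 3+DMSO replicate 1 (-0.81, adjusted p = 0.0335).

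Set against Stage 1, the Stage 3+DMSO cells held more of 5 members and less of 2, against 30.5% of genes called higher and 17.3% lower. ASPN (1.45, SE 0.14) and OMD (1.35, SE 0.17) were furthest above Stage 1, ASPN at 220 ± 16.6 against 79.9 ± 7.10 RPKM and OMD at 6.32 ± 0.987 against 1.86 ± 0.232 (SD, n = 3). The ratio of mean RPKM was 2.75 for ASPN and 3.41 for OMD. DCN fell by 0.64 (SE 0.07, adjusted p = 1.47e-05) and PRELP by 0.42 (SE 0.07, adjusted p = 0.000566). LUM was at its Stage 1 level within the replicate spread (-0.04, 95% interval -0.28 to 0.21). FMOD (0.27, SE 0.07) and BGN (0.24, SE 0.06) were called higher. Rescaling by the median ratio ended both calls, with FMOD at 0.15 (adjusted p = 0.0915) and BGN at 0.13 (adjusted p = 0.160). It moved the median of all genes by -0.10 and the share of higher calls from 63.8% to 48.0%. The call of OGN (0.58, adjusted p = 0.0228) did not hold in 7 of 18 alternatives, 4 of which each lacked 1 library (Stage 1 replicate 1 or 2, or Stage 3+DMSO replicate 1 or 3, with adjusted p from 0.0525 to 0.0920).

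**Figure D2:**
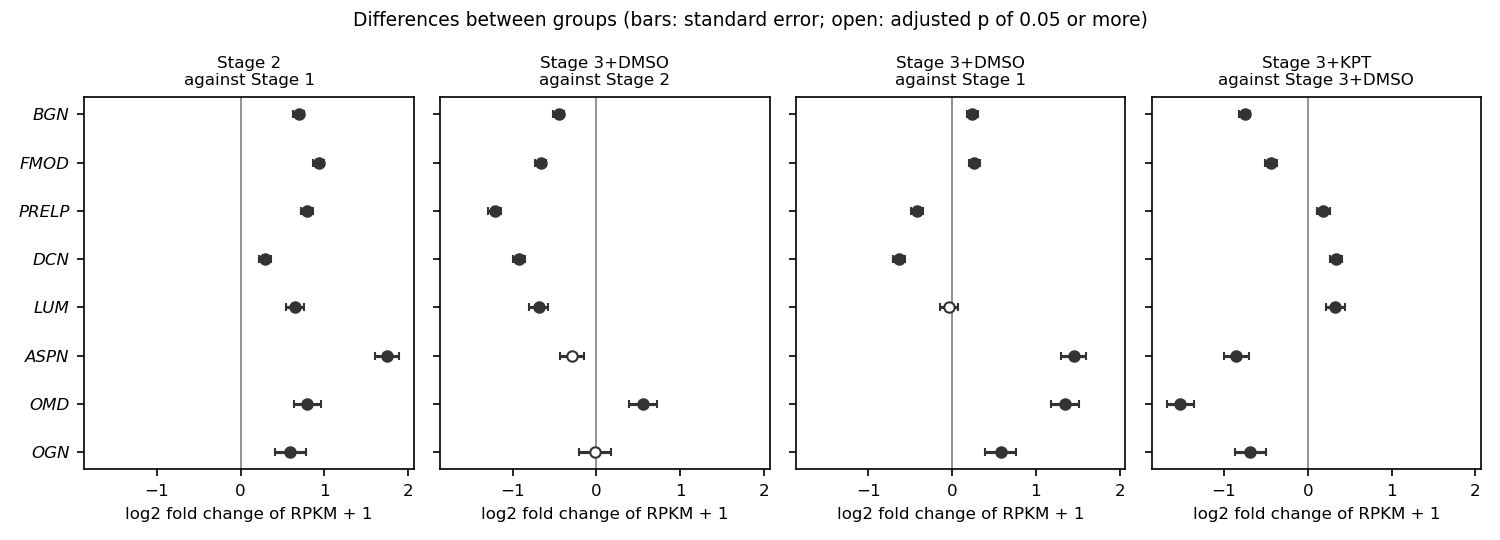
Log2 fold change of RPKM + 1 (x axis) with its standard error for each gene (y axis) in 4 comparisons; filled points have an adjusted p under 0.05 and open points do not. All 8 points lie above 0 for Stage 2 against Stage 1, whereas Stage 3+KPT against Stage 3+DMSO has 5 below and 3 above.

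With KPT, members were called in both directions. Compared with Stage 3+DMSO, 5 members fell and 3 rose, against 29.5% of genes called lower and 30.5% called higher. The number of rises was near that background. OMD fell by 1.52 (SE 0.17, adjusted p = 5.22e-06), ASPN by 0.85 (SE 0.14, adjusted p = 0.000246) and BGN by 0.75 (SE 0.06, adjusted p = 5.20e-07). OGN fell by 0.68 (SE 0.19, adjusted p = 0.00695) and FMOD by 0.44 (SE 0.07, adjusted p = 0.000107). DCN rose by 0.34 (SE 0.07, adjusted p = 0.00118), with all 3 KPT libraries above all 3 DMSO libraries. The 5 that fell kept their call in every alternative run (19 each, 18 for OGN), and so did DCN (19).

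The other two rises with KPT were less firm. LUM rose by 0.33 (SE 0.11, adjusted p = 0.0232), and the call was lost without Stage 3+DMSO replicate 2 (0.23, adjusted p = 0.106) or Stage 3+KPT replicate 1 (0.0800) or 3 (0.0588). PRELP rose by 0.19 (SE 0.07, adjusted p = 0.0478) with overlapping libraries, and 11 of 19 alternatives did not call it, among them every one that left out a library except Stage 3+DMSO replicate 3. Without Stage 3+DMSO replicate 1 its value was 0.10 (adjusted p = 0.190). In the same comparison smooth muscle or activation markers fell (4 of 5 tested), as did 3 of 4 tested endothelial markers, whose summed RPKM was 65.7 to 83.8 in Stage 3+DMSO and 32.7 to 38.5 in Stage 3+KPT. VWF was at 0.0145 RPKM or less in every group mean. Fibroblast markers had 5 lower and 1 higher of 8, with summed RPKM of 26210 to 28579 with DMSO and 16131 to 16829 with KPT. Chondrocyte markers had 3 lower and 1 higher of 4, although their sum was 49.7 to 60.2 RPKM with DMSO and 64.6 to 68.9 with KPT. SOX9 made up most of that sum, at a mean of 30.6 RPKM with DMSO and 62.6 with KPT, and the group means of COL9A1 were at most 0.0498. Osteoblast markers had 1 higher and 0 lower of 3. Over all genes, 29.5% were called lower and 30.5% higher. The part of these markers in the members' values was not tested.

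Against Stage 2, all 8 members were lower with KPT, where 24.9% of genes were called lower and 42.5% higher. Median-ratio rescaling took the share of all calls that were higher from 63.05% to 50.3%. BGN fell by 1.20 (SE 0.06, adjusted p = 5.61e-09), ASPN by 1.15 (SE 0.14), FMOD by 1.10 (SE 0.07) and PRELP by 1.028 (SE 0.07). LUM fell least, by 0.36 (SE 0.11, adjusted p = 0.0125), and was not called without Stage 2 replicate 3 (0.0616), without Stage 3+KPT replicate 2 (0.0510) or under quantile normalization (0.0910). Against Stage 1, 4 members were lower and 2 higher, where 27.4% of genes were called lower and 39.4% higher. BGN fell by 0.51 (SE 0.06, adjusted p = 1.36e-05), DCN by 0.30 (SE 0.07) and PRELP by 0.24 (SE 0.07), while ASPN rose by 0.60 (SE 0.14, adjusted p = 0.00267). PRELP was not called under quantile normalization (-0.12, adjusted p = 0.243).

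LUM (0.29, adjusted p = 0.0355) and FMOD (-0.17, adjusted p = 0.0379) were also called against Stage 1, but LUM lost its call in 8 of 19 alternatives and FMOD in 10 of 19. Leaving out any 1 Stage 1 library, or Stage 3+KPT replicate 1 or 3, ended either call (adjusted p from 0.0573 to 0.111). OMD (-0.17, 95% interval -0.53 to 0.19) and OGN (-0.11, 95% interval -0.51 to 0.30) did not pass. The 3 comparisons of the KPT group share its libraries, as the 3 comparisons of each other group share theirs, and their values are therefore not independent.

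The total level of the family differed between the groups. The 8 genes summed to 9099 ± 187 RPKM at Stage 1, 15633 ± 181 at Stage 2, 10279 ± 565 in Stage 3+DMSO and 7421 ± 102 in Stage 3+KPT (SD, n = 3). That was 0.909%, 1.53%, 1.02% and 0.774% of the RPKM of all genes. FMOD made up 34.8 to 38.7% of the sum in the group means. BGN made up 45.8% at Stage 1, 43.1% at Stage 2, 48.1% in Stage 3+DMSO and 39.4% with KPT, and the last 2 groups did not overlap (46.3 to 49.2% against 37.7 to 40.3%). DCN made up 6.26% at Stage 1, 4.46% at Stage 2, 3.57% in Stage 3+DMSO and 6.27% with KPT. PRELP made up 7.71% and 7.78% at Stages 1 and 2, 5.11% in Stage 3+DMSO and 8.02% with KPT. In this way the DMSO group at Stage 3 was the one in which the smaller members DCN and PRELP contributed least.

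**Figure D3:**
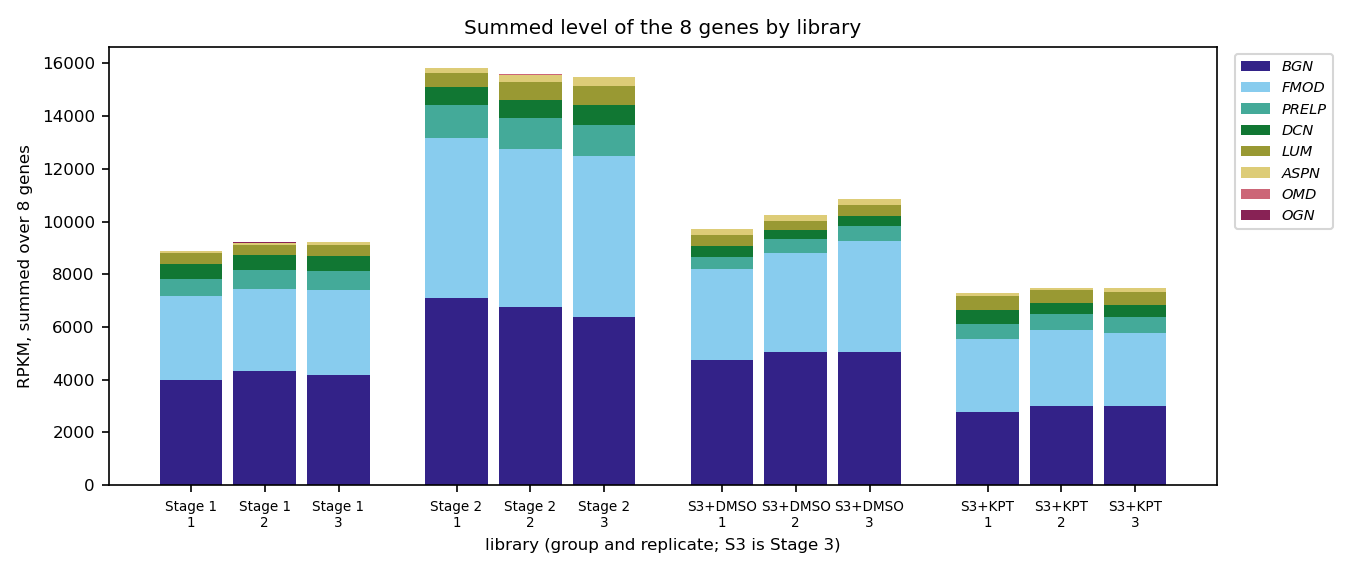
Stacked RPKM of the 8 genes (y axis, from 0) in each of the 12 libraries (x axis, by group and replicate), 1 colour per gene. Stage 2 libraries reach 15478 to 15832 RPKM and KPT libraries 7305 to 7493, with BGN and FMOD making up most of each bar; OMD and OGN are too low to be seen.

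Ratios of 2 members within a library do not depend on how that library was scaled. They were chosen after the values had been seen, and 3 libraries against 3 cannot give an exact two-sided permutation p below 0.1, so they are given as a description. The BGN to DCN ratio was 7.09, 7.70 and 7.19 in Stage 1 replicates 1, 2 and 3 and 10.5, 9.95 and 8.66 at Stage 2. It was 12.3, 14.9 and 13.4 in Stage 3+DMSO and 5.38, 6.80 and 6.86 with KPT. Each group was separate from the others, with BGN highest relative to DCN in Stage 3+DMSO and lowest with KPT.

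The ASPN to DCN ratio spanned the widest range, from 0.140 ± 0.00998 at Stage 1 through 0.392 ± 0.0762 at Stage 2 to 0.601 ± 0.00824 in Stage 3+DMSO, and was 0.262 ± 0.0238 with KPT. FMOD to PRELP was 4.52 ± 0.135 at Stage 1, 4.98 ± 0.123 at Stage 2, 7.28 ± 0.180 in Stage 3+DMSO and 4.72 ± 0.145 with KPT. LUM to DCN behaved differently: it was 0.713 ± 0.00481 at Stage 1 and 0.921 ± 0.117 at Stage 2. It then stood at 1.08 ± 0.0555 in Stage 3+DMSO and 1.07 ± 0.0669 with KPT, which overlapped. The ratio of these neighbours on chromosome 5 thus did not separate solvent from compound.

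Most of the 8 genes lie in 3 groups of neighbours. DCN and LUM are 31985 bases apart on chromosome 5, with KERA next to LUM. FMOD and PRELP are 116974 bases apart on chromosome 9, with OPTC on the far side of PRELP. OGN, OMD and ASPN share a stretch of chromosome 3, in which OMD and ASPN are 10874 bases apart, with ECM2 beyond ASPN. OMD and ASPN both lie within the span of CENPP, a centromere protein gene on the opposite strand. None of the 6 exon records of CENPP overlapped an exon of either, and CENPP (3.53 to 4.98 RPKM by group mean) was not called in any comparison. Whether reads were counted by strand is not stated, and reads of overlapping genes on opposite strands may therefore not be told apart.

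Neighbours were not always the genes with the most similar pattern. Over the 12 libraries, the Pearson correlation of log2(RPKM + 1) was 0.93 for FMOD with BGN and 0.89 for DCN with PRELP. In each of these pairs the genes lie on different chromosomes. It was 0.70 for the neighbours DCN and LUM and 0.82 for FMOD and PRELP. Within the stretch of chromosome 3 it was 0.82 for OGN with ASPN, 0.79 for OMD with ASPN and 0.75 for OGN with OMD. The lowest value among the 28 pairs was -0.27, for DCN with OMD. These correlations describe 12 libraries that share 4 conditions, and no test was made of them.

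Among all tested genes with a symbol, the closest to BGN in pattern were PTH1R, a receptor for parathyroid hormone (r = 0.985), LOC100155600 (0.985) and P3H1, a collagen prolyl hydroxylase (0.984). PTH1R was low, with group means of 0.408 to 3.82 RPKM. FMOD was closest to ID1, a well-known BMP target (0.976), then CERCAM (0.975) and the low SHANK1 (0.972, group means of 1.60 to 3.38 RPKM). DCN was closest to IL33, an alarmin cytokine (0.997), then the taurine transporter SLC6A6 (0.971) and HMGCS1 of the cholesterol pathway (0.962). IL33 held 118 ± 9.81 RPKM at Stage 1, 181 ± 13.9 at Stage 2, 46.1 ± 7.96 in Stage 3+DMSO and 77.5 ± 11.01 with KPT (SD, n = 3). PRELP was nearest to CHD3 (0.993), CDK18 (0.968) and ELMO3 (0.956), and LUM to DTWD1 (0.973), IFT80 (0.960) and AKIRIN1 (0.9401).

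ASPN was nearest to ASPH, an aspartyl hydroxylase (0.977), EGLN3, an oxygen-sensing prolyl hydroxylase (0.972), and C1QTNF3 (0.961). C1QTNF3 was 15.9 ± 0.420 RPKM at Stage 1, 117 ± 13.3 at Stage 2, 80.3 ± 7.66 in Stage 3+DMSO and 43.2 ± 1.27 with KPT. OMD was nearest to CMKLR1, the chemerin receptor (0.970), PRKCD (0.966) and SLC44A2 (0.965). CMKLR1 was, like OMD, higher in each later group without the compound, at 18.1 ± 0.275, 38.7 ± 2.90 and 82.0 ± 2.06 RPKM. With KPT it was 10.5 ± 1.71. The best matches of OGN were looser: GLIPR1 (0.931), SLC9A3R1 (0.913) and TRNP1 (0.912, with group means of only 0.402 to 1.14 RPKM).

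Exon values showed whether a gene's change rested on the whole transcript. From Stage 1 to Stage 2, every exon record with a mean of at least 1 RPKM was higher for DCN (8 of 8), ASPN (8 of 8), FMOD, LUM, OMD and PRELP (3 of 3 each) and OGN (4 of 4). PRELP has 2 further records, of 14 and 27 bases, that were at 0. BGN was higher in 16 of 17 records, many of which overlap and share reads and are thus not separate exons. The exception was exon record 3, 126 bases on chromosome X from 141852473 to 141852598, which was singled out after its values were seen.

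That BGN record read 68.6, 66.8 and 61.6 RPKM in the Stage 1 libraries and 34.5, 36.1 and 27.2 at Stage 2. It read 32.8, 25.6 and 26.9 in Stage 3+DMSO and 10.8, 12.5 and 9.95 with KPT. It was therefore highest at Stage 1, where the rest of the gene was not. Its mean was 1.58% of the gene's RPKM at Stage 1, 0.482% at Stage 2, 0.579% in Stage 3+DMSO and 0.379% with KPT, on 441, 221, 218 and 85 reads in all. The adjoining records 2 and 4 held at least 2542 RPKM in every library.

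With KPT against DMSO at Stage 3, the exons of most members moved with the gene. All 8 DCN records were higher (log2 ratio 0.23 to 0.46), and all 17 of BGN (many of them overlapping), 8 of ASPN, 3 of FMOD, 3 of OMD and 4 of OGN were lower. LUM was the exception. Its first exon read 243, 200 and 230 RPKM with DMSO and 214, 215 and 203 with KPT, a log2 ratio of -0.09. Its last exon read 152, 112 and 136 RPKM with DMSO and 215, 174 and 224 with KPT, a log2 ratio of 0.61. The middle exon was in between (0.26).

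The last exon also had a higher log2 ratio than the first in FMOD (-0.66 in the first, -0.40 in the last), ASPN (-1.20 and -0.85), BGN (-0.89 and -0.69), DCN (0.27 and 0.32) and PRELP (0.12 and 0.16). The opposite held for OMD (-1.25 and -1.70) and OGN (-0.46 and -0.69). Across 7887 genes, the median log2 ratio of the last to the first exon was 0.40 to 0.49 in the KPT libraries and 0.23 to 0.27 in those with DMSO, so KPT libraries held relatively more reads towards the 3' end. At Stage 1 the same median was 0.31 to 0.34. Against Stage 1, LUM with KPT had log2 ratios of -0.02 in its first exon, 0.24 in the middle and 0.53 in the last. The part of the 3' shift in both rises of LUM and in the other KPT differences was not tested.

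**Figure D4:**
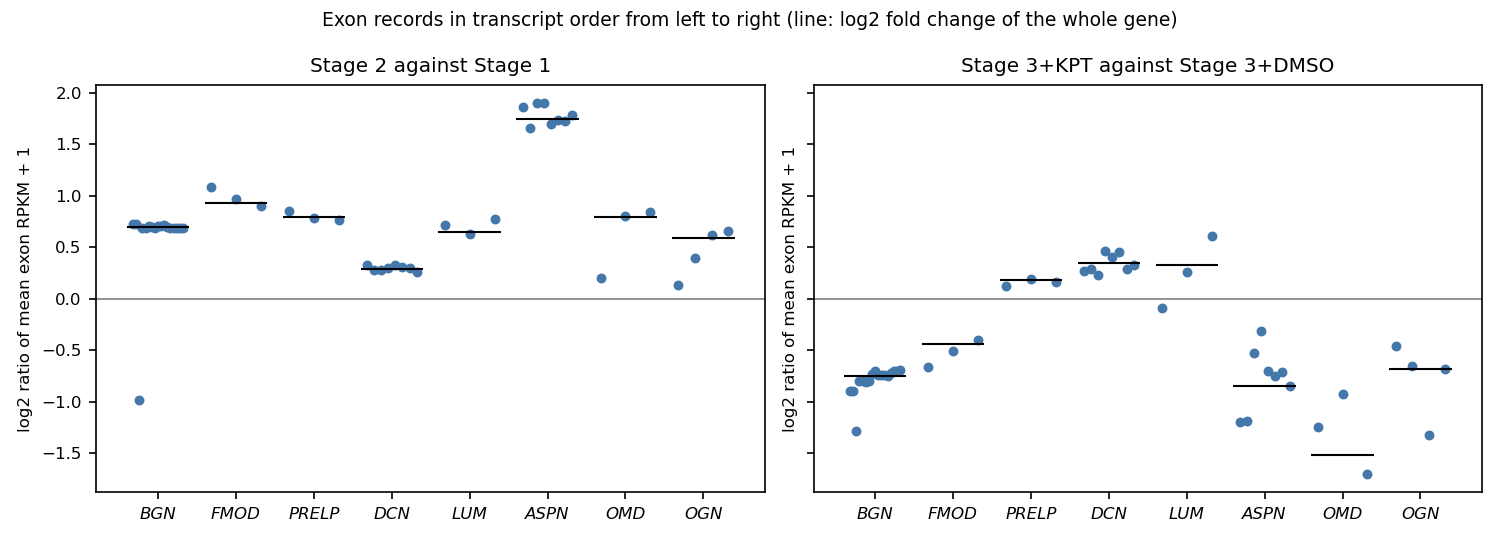
Log2 ratio of mean exon RPKM + 1 (y axis) for each exon record of the 8 genes, in transcript order within each gene, for Stage 2 against Stage 1 (left) and Stage 3+KPT against Stage 3+DMSO (right); lines give the log2 fold change of the whole gene. BGN record 3 lies below 0 on the left while the other 16 lie together above it, and the LUM records climb from -0.09 to 0.61 on the right.

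Of the 10 other members of the family that were looked for, 6 passed the filter, and KERA, EPYC, OPTC and CHADL did not. Compared with Stage 1, 4 of the 6 were higher at Stage 2 and none lower, where 16.3% of all genes were called higher and 24.4% lower. Over 19 alternatives 3 to 5 were higher, and 2 alternatives called 1 lower. The call of NYX (0.32, adjusted p = 0.0358) was lost without Stage 1 replicate 2 or 3 or Stage 2 replicate 2 or 3 (adjusted p from 0.0552 to 0.139). PODN, a class V member, rose from 13.1 ± 0.0141 to 32.5 ± 0.593 RPKM (1.25, adjusted p = 4.88e-07) and PODNL1 from 15.2 to 32.0 (1.02, adjusted p = 0.000135). Between Stage 2 and Stage 3+DMSO, 2 of the 6 were higher and 3 lower, against 33.0% and 11.1% of all genes. CHAD (-0.64, adjusted p = 0.0405), NYX (-0.57, adjusted p = 0.00112) and PODNL1 (-0.51, adjusted p = 0.0110) fell. The 3 lower became 1 to 4 over 19 alternatives. CHAD rested on 74 to 95 reads per library at Stage 2 and 35 to 67 in Stage 3+DMSO. The CHAD call was lost with a pseudocount of 0.1, with no filter and without any 1 Stage 2 library. It was also lost without Stage 3+DMSO replicate 1 or replicate 1 of every group (adjusted p from 0.05315 to 0.1498 in all). PODNL1 was not called with only the compared groups fitted (0.0530) or without replicate 1 of every group (0.0608). PODN rose again, to 48.0 RPKM (0.55, adjusted p = 0.000104), and with KPT it fell by 1.08 to 22.3 (adjusted p = 8.11e-08). NYX fell with KPT to 1.29 from 5.12 RPKM (-1.42, adjusted p = 2.15e-07). TSKU (tsukushi) rose with KPT from 87.9 to 170.0 RPKM (0.96, adjusted p = 2.73e-05). The tally of this list with KPT against DMSO was 1 higher and 3 lower (2 higher without Stage 3+DMSO replicate 3), against 30.5% and 29.5% of all genes.

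ECM2, the neighbour of ASPN, is carried by 2 gene identifiers on opposite strands, and which is the true gene is uncertain. The one with the higher level was 15.4, 31.4, 56.8 and 17.3 RPKM by mean in Stage 1, Stage 2, Stage 3+DMSO and Stage 3+KPT, and the one next to ASPN 5.34, 13.1, 22.1 and 8.70. Both were called higher at each step without the compound and lower with KPT against DMSO, where the first fell by 1.63 (adjusted p = 9.76e-07) and the second by 1.23 (adjusted p = 0.000182).

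Of 21 tested enzymes of the linker, chondroitin and dermatan sulfate, 7 were higher and 5 lower at Stage 2, with a median log2 fold change of 0.12, beside 16.3% and 24.4% of all genes. XYLT1, which starts the chain on the core protein, rose to 9.70 from 5.43 RPKM (0.73, adjusted p = 0.000679), and CHSY3, a chondroitin synthase, fell from 31.7 to 18.8 (-0.73, adjusted p = 0.000170). The tally of genes called lower was 3 without Stage 1 replicate 2 or Stage 2 replicate 2. With KPT against DMSO, 4 were higher (2 without Stage 3+KPT replicate 2) and 10 lower, with a median of -0.21, beside 30.5% and 29.5% of all genes. XYLT1 fell by 1.48 (adjusted p = 5.60e-07) and CHSY3 by 2.01 (adjusted p = 4.91e-09), while DSE, the epimerase that makes dermatan sulfate, rose by 0.59 (adjusted p = 1.46e-05).

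Between Stage 2 and Stage 3+DMSO the same list had 10 higher and 5 lower, led by CHST3 (1.22, adjusted p = 8.92e-08), a sulfotransferase, but 5 higher and 6 lower after median-ratio rescaling, and 3 lower without Stage 3+DMSO replicate 2. Over all genes the shares were 33.0% and 11.1%.

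Of 7 tested keratan sulfate enzymes, 3 were higher and 2 lower at Stage 2, 0 and 1 at the next step, and 1 and 2 with KPT. The shares of all genes were 16.3% and 24.4%, 33.0% and 11.1%, and 30.5% and 29.5% in these comparisons. At Stage 2 the tally became 5 higher and 1 lower under both median-ratio rescaling and quantile normalization. Leaving out any 1 Stage 1 or Stage 2 library changed the 2 lower at Stage 2 to 1. The 1 lower at the next step became 0 to 2 over the left-out libraries, changing without Stage 2 replicate 3 or Stage 3+DMSO replicate 1 or 2. Of the 19 alternatives, 1 called a keratan sulfate enzyme higher at that step. B4GALT1, a galactosyltransferase of that pathway, fell with KPT from 84.9 to 55.4 RPKM (-0.60, adjusted p = 5.67e-06) and B3GNT2 rose from 39.1 to 83.6 (1.10, adjusted p = 1.06e-05).

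Of 15 tested suppliers of sulfate and UDP-sugars, 6 were higher and 5 lower with KPT against DMSO, close to the 30.5% and 29.5% of all genes. UAP1, which makes UDP-N-acetylglucosamine, rose from 66.0 to 242.5 RPKM (1.86, adjusted p = 1.27e-09). At Stage 2 this list had 3 higher and 4 lower, beside 16.3% and 24.4% of all genes, and the lower ones were 2 without any 1 Stage 1 library or without Stage 2 replicate 1. At Stage 3+DMSO it had 5 higher and 5 lower against Stage 2, beside 33.0% and 11.1%, with 3 higher after median-ratio rescaling or without Stage 3+DMSO replicate 2.

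Of 10 tested collagens to which these proteins bind, 5 were higher and none lower at Stage 2 (5 to 8 higher over 19 alternatives, none lower in any), beside 16.3% and 24.4% of all genes and with a median of 0.37 against -0.05 for all genes. COL3A1, the fibrillar collagen III chain, rose from 3096 to 6013 RPKM (0.96, adjusted p = 4.45e-05). With KPT against DMSO 8 fell and 1 rose, beside 29.5% and 30.5% of all genes and with a median of -0.94 against 0.02. COL11A1 fell by 1.95 (adjusted p = 1.30e-09) and COL5A1 by 1.92 (adjusted p = 1.57e-09), both of which help to start fibrils, and COL12A1 rose by 0.32 (adjusted p = 0.0149), a call that was lost without Stage 3+KPT replicate 3. Between Stage 2 and Stage 3+DMSO, 4 were higher (2 after median-ratio rescaling) and 4 lower (2 under quantile normalization), beside 33.0% and 11.1% of all genes, with COL14A1 up by 1.28 (adjusted p = 6.68e-06) and COL12A1 down by 0.83 (adjusted p = 4.10e-05). No row named COL1A1, COL2A1 or COL6A1 was found, and these were not analysed here.

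Growth factors and receptors known as partners of the family numbered 22 tested genes. At Stage 2, 9 were higher and 5 lower, beside 16.3% and 24.4% of all genes. TGFB3 fell from 166.9 to 101.0 RPKM (-0.72, adjusted p = 3.49e-05). In Stage 3+DMSO against Stage 2, 6 were higher and 3 lower (6 lower after median-ratio rescaling), beside 33.0% and 11.1%, with integrin ITGB3 up by 1.25 (adjusted p = 1.57e-06). With KPT against DMSO, 10 were higher (6 without Stage 3+KPT replicate 3) and 6 lower, beside 30.5% and 29.5%. BMP2 rose from 4.89 to 37.3 RPKM (2.78, adjusted p = 1.28e-06) and TLR4, a receptor for biglycan, from 12.8 to 47.9 (1.84, adjusted p = 1.07e-06), whereas TGFB3 fell by 2.16 (adjusted p = 3.37e-10).

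Of 14 tested proteases and helpers that act on these proteins, 6 were higher and 2 lower at Stage 2, and 7 higher and 6 lower with KPT against DMSO. The shares of all genes were 16.3% and 24.4%, and 30.5% and 29.5%. MMP1, a collagenase, fell to 9.53 RPKM at Stage 2 from 77.6 at Stage 1 (-2.91, adjusted p = 9.52e-08) and rose from 8.26 with DMSO to 583 with KPT (5.999, adjusted p = 5.70e-12). ADAMTS5, a proteoglycan-cleaving enzyme, rose with KPT from 2.096 to 52.8 RPKM (4.16, adjusted p = 1.36e-09). PCOLCE, which aids the removal of procollagen ends, fell by 1.51 (adjusted p = 8.67e-08). In Stage 3+DMSO against Stage 2, 6 were higher and 1 lower (3 lower after median-ratio rescaling, and more than 1 without Stage 3+DMSO replicate 1 or 3), beside 33.0% and 11.1% of all genes, with MMP14 up by 1.04 (adjusted p = 1.90e-06).

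Other proteoglycans, outside the leucine-rich family, had 7 higher and 5 lower of 20 at Stage 2, 8 higher and 4 lower at the next step (5 and 7 after median-ratio rescaling), and 7 higher and 11 lower with KPT against DMSO. Beside these stood 16.3% and 24.4%, 33.0% and 11.1%, and 30.5% and 29.5% of all genes, so the 5 lower at Stage 2 were near the background. ACAN, the cartilage proteoglycan aggrecan, rose from 2.03 to 8.41 RPKM between Stage 2 and Stage 3+DMSO (1.63, adjusted p = 3.57e-06) and fell to 0.366 with KPT (-2.78, adjusted p = 5.35e-09). SRGN, serglycin, rose with KPT from 57.3 to 780.1 RPKM (3.75, adjusted p = 2.14e-12). The median of this list with KPT was -0.74, beside -0.56 for the 8 small leucine-rich members and 0.02 for all genes.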

How the data were processed

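The 8 members and all gene lists were chosen with earlier results of these data known. The authors deposited RPKM values per gene and per exon for 12 libraries (3 in each of 4 groups), with Ensembl gene identifiers and coordinates. Libraries were made from 500 ng of total RNA with a stranded mRNA kit, per the labels' protocols, and the submitters' processing notes name TopHat2 2.1.0 as the aligner. No counter, build or annotation is named in the sources used here. RPKM multiplied by exon length and a whole-number library total (13188023 to 24724019) gave whole reads for 100% of values, within 0.0001 of a read. Recovered reads summed over genes were larger than these totals, for a reason not stated. They gave the depth per library and an added limma-voom fit. RPKM reflects relative abundance, so a change in very abundant genes shifts all others.

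The test was limma 3.58.1 (R 4.3.3) on log2(RPKM + 1), with a pseudocount of 1, which understates the change of OMD and OGN. All 12 libraries entered one fit with an expression trend. Genes with RPKM of at least 1 in at least 3 libraries were tested (13046), and an adjusted p under 0.05 was called. The script was tested on simulated data. Exon ratios, shares and correlations are descriptions (pandas 2.3.3). Named genes were all 8 members, the 3 genes nearest in pattern to each, coordinate neighbours, and from each list up to 2 called genes in each direction whose libraries do not overlap, some left out for length. The lists were other family members, linker, chondroitin and dermatan enzymes, keratan sulfate enzymes, sulfate and UDP-sugar supply, collagens, growth factors and receptors, proteases, other proteoglycans and cell type markers. A symbol with several identifiers was represented by the one with the highest mean. Each choice was also changed alone: the pseudocount (0.1 or 0.5), the filter (none, or RPKM of at least 5), the scaling (median ratio or quantile), the trend (none), the samples fitted (only the compared groups, or all but 1 library), quality weights per library, and a block for replicate number. Limma-voom, a minimum of 10 recovered reads and leaving out replicate 1 of every group were chosen after seeing the data.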

Additional observations from a re-analysis of the deposited data

How the results depend on the processing

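Over 1081 recomputed member values, 65 changed their call or direction. For Stage 3+DMSO against Stage 2, the members called higher (1) became 0 under median-ratio rescaling and quantile normalization and 0 to 1 when single libraries were left out. For Stage 3+DMSO against Stage 1, the members called higher (5) became 3 under median-ratio rescaling. With KPT against DMSO, the members called higher (3) were 1 to 3 over the left-out libraries. With KPT against Stage 1, the members called higher (2) became 1 with no filter, with median-ratio rescaling, with no trend and at the lowest of 1 to 2 over the left-out libraries, and those called lower (4) became 2 under quantile normalization. Signs turned only for values that were small or uncalled: FMOD with KPT against Stage 1 under quantile normalization (0.0011), TSKU in Stage 3+DMSO against Stage 1 under median-ratio rescaling (-0.11), quantile normalization (-0.0737) and limma-voom (-0.0213), and, over the left-out libraries, that TSKU value (-0.13 to 0.17), OGN in Stage 3+DMSO against Stage 2 (-0.22 to 0.19), LUM in Stage 3+DMSO against Stage 1 (-0.11 to 0.0567), CHAD at Stage 2 (-0.30 to 0.10) and PODNL1 with KPT against DMSO (-0.0476 to 0.32). The cause was not tested.

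Libraries with the same replicate number gave no uniform sign of pairing: their deviations from the group means correlated by -0.13 to 0.07. For differently numbered libraries the range was -0.16 to 0.23. Between Stage 3+DMSO and Stage 3+KPT it was 0.033 to 0.075 for the same number and -0.081 to 0.032 for different numbers. Between Stage 2 and Stage 3+KPT the same-number range was -0.13 to 0.05. With 3 libraries per group, these values cannot exclude pairing. A replicate block left 8 members called higher at Stage 2 and changed no member's call. At 90 to 345 reads per library for OGN and 3 libraries per group, depth and replicate number limit what could be detected for the lowest members.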
